A study of Mus musculus with 2 samples.

Results

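Nodal, its co-receptor gene Tdgf1 (Cripto), its inhibitor genes Lefty1 and Lefty2, and the genes Smad2, Smad3 and Foxh1, which carry its signal to the nucleus, were followed in mouse induced pluripotent stem cells (iPSCs) with and without Srf. Srf encodes serum response factor, a transcription factor that binds the CArG box. These 7 genes were chosen by their role in the pathway, and all 7 were found in the 27998 genes of each count matrix. The knockout cells carried SRFΔ/Δ, the deleted allele, and the wild-type cells carried SRFf/f, the intact floxed allele. Both came from mouse iPSCs grown with serum. Each genotype is 1 droplet library (10x Genomics Chromium, Illumina NovaSeq), the number of independent lines behind each library is not given in the sources used here, and the bulk RNA sequencing named in the series design was not analysed here.

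With 1 library per genotype there is no test between genotypes and no p-value. All intervals below are exact 95% intervals that cover counting error only, and cells of a library are not replicates. Counts are UMIs (unique molecular identifiers, each standing for 1 captured RNA molecule), and a level is the UMIs of a gene over all UMIs of the summed cells, scaled to 1000000 (CPM).

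Nodal is a secreted ligand of the TGF-beta family. It acts through activin receptors, which need an EGF-CFC co-receptor such as Cripto to respond to it. The receptors phosphorylate SMAD2 and SMAD3, which enter the nucleus with SMAD4 and bind target genes together with FOXH1. Among the known targets are Nodal itself and the Lefty genes, whose secreted products block Nodal and its co-receptor, so the pathway drives its own ligand and its own inhibitors. In the mouse embryo it maintains the epiblast, patterns the visceral endoderm and induces mesoderm and definitive endoderm. Mouse pluripotent cells in culture express Tdgf1 and the Lefty genes.

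The upstream sequences are shown for the ligand and the co-receptor, because they differ in matches to the FOXH1, SMAD and KLF motifs searched below. A CArG box was found in neither. RefSeq promoters (GRCm38.p6) were found for 3 of the 7 genes, Nodal, Tdgf1 and Smad3. Each sequence below is the 250 bases before the annotated start, 5′ to 3′ on the gene's strand. Capitals mark the matched motifs, at chr10:61417722-61417971 on the plus strand for Nodal and chr9:110946159-110946408 on the minus strand for Tdgf1.
Nodal: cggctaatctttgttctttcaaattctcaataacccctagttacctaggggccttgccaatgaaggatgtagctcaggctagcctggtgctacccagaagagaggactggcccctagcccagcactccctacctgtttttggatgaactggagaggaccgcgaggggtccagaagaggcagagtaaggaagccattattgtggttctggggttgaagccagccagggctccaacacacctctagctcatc
Tdgf1: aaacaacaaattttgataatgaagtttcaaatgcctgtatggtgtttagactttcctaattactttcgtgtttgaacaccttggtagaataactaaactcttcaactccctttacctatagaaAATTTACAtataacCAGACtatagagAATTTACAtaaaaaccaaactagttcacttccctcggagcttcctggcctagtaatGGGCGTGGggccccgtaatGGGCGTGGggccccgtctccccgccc

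Both strands were searched for TGTNNATT (a loose form of the FOXH1 motif, with N any base), CAGAC (a SMAD motif), GGGNGTGG (a KLF motif) and the CArG box of SRF. Of 32851 RefSeq promoters of the same length, 10.9% held TGTNNATT, 42.2% CAGAC, 15.9% GGGNGTGG and 1.47% a CArG box. The Tdgf1 window held TGTNNATT 2 times, both read on the other strand as AATTTACA (bases -127 to -120 and -101 to -94 from the start). Both have A at each N, so they match the loose form only by its open positions. A single CAGAC lay between them at -113 to -109. It also held GGGCGTGG 2 times (-45 to -38 and -26 to -19), a form of the KLF motif, and no CArG box. The Nodal window, in lower case throughout, held none of the 4, and neither did that of Smad3. A match is a description of letters, not a bound site.

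In the GENCODE M21 annotation of GRCm38, Nodal (ENSMUSG00000037171) lies at chr10:61417972-61425338 on the plus strand. Tdgf1 (ENSMUSG00000032494) lies at chr9:110939603-110946158 on the minus strand. Lefty2 (ENSMUSG00000066652, chr1:180893108-180899103) and Lefty1 (ENSMUSG00000038793, chr1:180935022-180938400) are neighbours on the plus strand, 35918 bases apart. Smad2 (ENSMUSG00000024563) is on chromosome 18, Smad3 (ENSMUSG00000032402) on chromosome 9 and Foxh1 (ENSMUSG00000033837) on chromosome 15. All 7 are protein-coding genes, and none lies on chromosome 8. Of the windows of 50 bases in the longest transcripts, 17.9% of those of Lefty1 also occur in Lefty2 (10% over its last 500 bases). For Lefty2 the share with Lefty1 was 11.6% (0 over its last 500 bases), and for Tdgf1 the share with its pseudogene Tdgf1-ps1 was 12.5% (also 0 there). How reads shared by such copies were counted is not given in the sources used here, so a small exchange between the Lefty genes is possible.

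The knockout library held 1073 cells and 22277996 UMIs, the wild-type library 954 cells and 24005849 UMIs, and 2 cell barcodes occurred in both. After keeping cells with at least 1000 genes and 1 to 10% mitochondrial UMIs, 753 knockout and 902 wild-type cells remained, with a median of 24434 and 26602 UMIs. They were split by their raw UMIs of 8 primitive endoderm genes (Gata6, Gata4, Sox17, Pdgfra, Dab2, Cubn, Lrp2, Amn). Cells with 0 or 1 such UMI, called endoderm-low, numbered 592 in the knockout against 880 in the wild type. Cells with 10 or more, called endoderm-high, numbered 95 in the knockout against 3 in the wild type, and 66 knockout and 19 wild-type cells lay between. Srf itself gave 4 UMIs (0.271 CPM) in knockout and 198 UMIs (8.67 CPM) in wild-type endoderm-low cells.

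The iPSC label was checked on 12 pluripotency genes, all of which were detected in both endoderm-low classes, at a summed 10018 CPM in the knockout and 13295 CPM in the wild type. The 12 endoderm genes that the split did not use summed to 727 and 811 CPM in these cells and to 6644 CPM in knockout endoderm-high cells. The 9 fibroblast (feeder cell) genes, all 9 detected in knockout cells and all but Lum in wild-type ones, summed to 142 and 47.0 CPM in the endoderm-low classes. Cells with at least 20 UMIs of these genes numbered 12 of 592 and 7 of 880. Chromosome 8 took more than 1.2 times its wild-type median share of autosomal UMIs in 47.0% of knockout and 9.89% of wild-type endoderm-low cells, and in 64.2% of knockout endoderm-high cells. Of the 95 knockout endoderm-high cells, 3 held 229 to 893 UMIs of 5 macrophage genes (Pf4, Ccl6, Wfdc17, Lyz2, Tyrobp) and had Dab2 as their only gene of the 8. In the wild type 2 of the 3 endoderm-high cells were of that kind, with 130 and 300 such UMIs.

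In endoderm-low cells the ligand and 1 of its inhibitors differed in opposite directions. Nodal was 1.68-fold higher and Lefty1 1.85-fold lower in the knockout, while Tdgf1 and Lefty2 lay within 1.1-fold of the wild type. When cells were split by mitochondrial share, Nodal fell short of 1.5-fold in each part, as given below. The Lefty1 log2 ratio was -0.80 at 1 to 5% mitochondrial UMIs and -1.14 above 5%. With only cells of 0 endoderm UMIs it was -0.57, short of 1.5-fold. In cells with a raised chromosome 8 share it was 0.20. Of the 5 members with a mean of at least 10 CPM, 1 was at least 1.5-fold higher, against 4.72% of all 6461 genes measured at that level, and another 1 lower, against 2.48% (7.2% in either direction). The median log2 ratio of the 5 members was 0.12, and that of all 6461 genes 0.06, with 10th and 90th percentiles of -0.31 and 0.43.

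The Nodal ligand gave 273 UMIs in the knockout, 18.5 CPM (16.4 to 20.8), and 252 UMIs in the wild type, 11.0 CPM (9.72 to 12.5). The log2 ratio of the levels was 0.74 (0.49 to 1.0), the 157th highest of the 6461 genes. At 1 to 5% mitochondrial UMIs (388 knockout and 767 wild-type cells) Nodal was 15.1 against 10.3 CPM, a log2 ratio of 0.55 (0.24 to 0.85). Above 5% (204 and 113 cells) it was 26.2 against 18.4 CPM, a log2 ratio of 0.50 (-0.03 to 1.08). Neither ratio reached the fold set for a call, and the part of the mitochondrial share in the Nodal result was not tested. Nodal UMIs were thinly spread: after every cell was thinned to 10413 UMIs, at least 1 was held by 15.4% (12.5 to 18.8) of the 525 knockout cells and 11.4% (9.25 to 13.8) of the 791 wild-type ones. Without thinning the shares were 30.7% and 23.5%. The background was read in the fibroblast-marker-high cells of all classes, 22 knockout cells (10 of them with 2 to 9 endoderm UMIs) and 9 wild-type cells. After thinning none held a Nodal UMI, 0 of 19 in the knockout and 0 of 7 in the wild type, which allows a share of up to 15.8% and 42.9% (3 cells of the total, not an exact interval). These cells, which should lack the pathway's pluripotency genes and so show the level given by free RNA, had median depths of 26799 and 21118 UMIs. At least 2 thinned Nodal UMIs were seen in 14 of 525 knockout cells and in 5 of 791 wild-type cells, and no cell had 5. Nodal was thus a low, scattered transcript in both libraries. The share of cells holding it was higher in the knockout, but the intervals of the thinned shares overlapped. These shares were not split by mitochondrial UMIs.

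Tdgf1, the co-receptor, was present in nearly every endoderm-low cell. Its level was 812.6 CPM (798.1 to 827.3) in the knockout and 769.4 CPM (758.1 to 780.9) in the wild type, a log2 ratio of 0.08 (0.05 to 0.11). Scaling by TMM brought this ratio to 0.0011 and scaling by the median of ratios to -0.0011, so that no direction can be given. Thinned Tdgf1 UMIs were found in 97.0% of knockout and 97.5% of wild-type cells (95.8% and 98.0% unthinned), against 2 of 19 and 1 of 7 fibroblast-marker-high cells. The squared coefficient of variation of the thinned counts was 0.36 and 0.39. Tdgf1 was therefore abundant and widely detected in both genotypes. Between cells its thinned counts varied more than counting error alone gives, with a variance of 3.11 times the mean in both libraries.

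Lefty1 had the largest shift of the 5 measured members. It gave 1089 UMIs in the knockout, 73.8 CPM (69.5 to 78.3), and 3123 UMIs in the wild type, 136.8 CPM (132.0 to 141.7). The log2 ratio was -0.89 (-0.99 to -0.79), the 56th lowest of the 6461 genes. This value depended on chromosome 8: in cells with its usual share the level was 50.6 CPM in 314 knockout cells against 142.4 CPM in 793 wild-type cells (log2 ratio -1.49, -1.65 to -1.34). In cells with a raised share it was 98.5 CPM in 278 knockout cells against 85.8 CPM in 87 wild-type cells (log2 ratio 0.20, -0.03 to 0.44). Lefty1 was thus lower in the knockout only among cells with the usual share. Between these cell groups Lefty1 also ran in opposite directions, 0.96 higher (log2, raised over usual) in the knockout and lower in the wild type (-0.73). The part of the chromosome 8 share in the result was not tested. Without the fibroblast-marker-high cells the log2 ratio over all cells was -0.87 for Lefty1 and 0.76 for Nodal, as large as with them.

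Lefty2, the other inhibitor, did not follow Lefty1. Its level was 95.3 CPM (90.3 to 100.4; 1406 UMIs) in the knockout and 87.5 CPM (83.7 to 91.4; 1997 UMIs) in the wild type. The log2 ratio was 0.12 (0.02 to 0.22) over all cells, -0.13 (-0.26 to 0.00) in cells with the usual chromosome 8 share and 0.62 (0.38 to 0.88) in cells with a raised share. Lefty1 therefore made up 43.6% of the Lefty UMIs (41.7 to 45.6) in the knockout and 61.0% (59.6 to 62.3) in the wild type. Summed, they came to 169.0 CPM with the deletion and 224.2 CPM without. For Nodal the log2 ratio was 1.09 (0.80 to 1.38) in cells with the usual share and 0.33 (-0.32 to 1.08) in cells with a raised share, where the wild type had 23 UMIs.

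**Figure D1:**
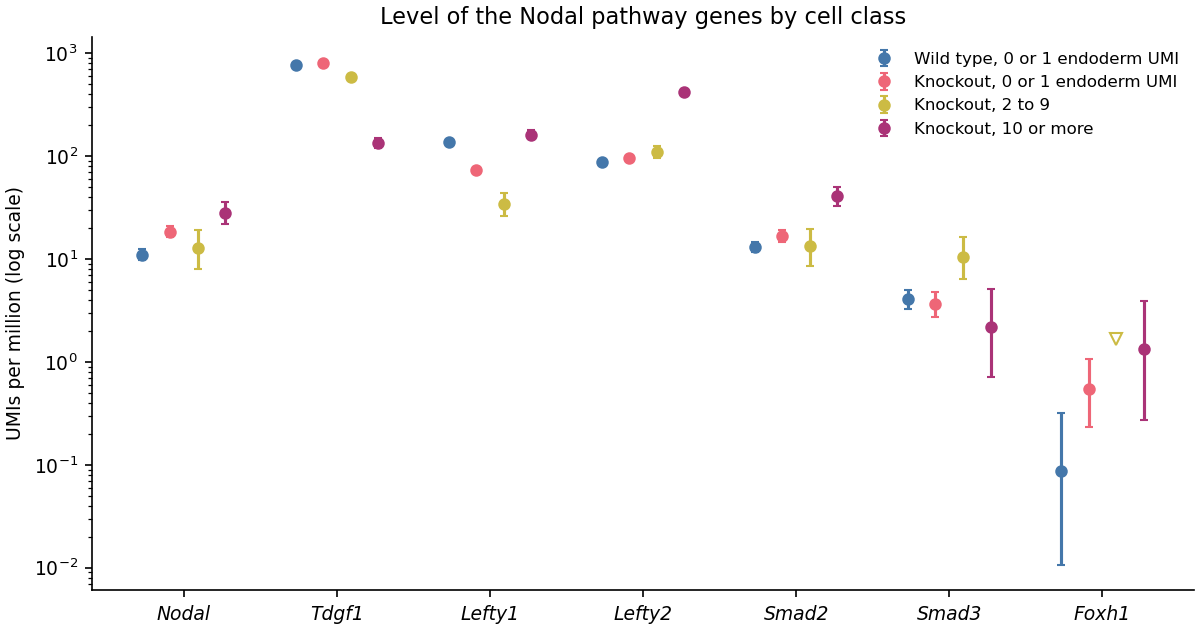
Level of each of the 7 genes (CPM, log scale) in wild-type endoderm-low cells and in knockout cells with 0 or 1, 2 to 9, and 10 or more UMIs of the 8 endoderm genes. Points are sums over the cells of a class, bars exact 95% Poisson intervals, and the open triangle the level of 3 UMIs where none was found; Lefty1 was 136.8 in wild-type and 73.8 in knockout endoderm-low cells, and Tdgf1 was lowest (135.2) in knockout endoderm-high cells.

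The transducers were low in both libraries. Smad2 gave 16.8 CPM (14.8 to 19.0; 248 UMIs) in the knockout and 13.1 CPM (11.7 to 14.7; 300 UMIs) in the wild type, a log2 ratio of 0.36 (0.11 to 0.60) that did not reach 1.5-fold. Smad3 gave 54 UMIs (3.66 CPM) and 93 UMIs (4.07 CPM), a log2 ratio of -0.15 (-0.67 to 0.34). Smad3 was higher in fibroblast-marker-high cells, 27.9 CPM (18 UMIs) in the knockout and 61.9 CPM (11 UMIs) in the wild type. Foxh1, the DNA-binding partner of the SMADs, gave 8 UMIs in 592 knockout cells and 2 UMIs in 880 wild-type cells. That is a ratio of log2 2.39 with an interval of 0.30 to 5.90, too few counts to rank the gene.

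Cell by cell, the wild-type excess of Lefty1 lay in the number of cells holding it and in the cells holding most. Thinned Lefty1 UMIs were found in 23.8% (20.2 to 27.7) of the knockout and 34.9% (31.6 to 38.3) of the wild-type endoderm-low cells, and unthinned in 32.8% and 46.9%. The background was not far below: 3 of 19 knockout and 2 of 7 wild-type fibroblast-marker-high cells held 1 thinned Lefty1 UMI, and none held 2. At least 2 thinned UMIs were found in 12.8% of knockout (10.0 to 15.9) and 20.1% of wild-type cells (17.4 to 23.1). At least 10 were found in 7 of 525 (1.33%) and 31 of 791 (3.92%). The mean in cells with any Lefty1 was 3.19 thinned UMIs in the knockout against 3.84 in the wild type. The 10% of cells with most held 78.4% of Lefty1 UMIs in the knockout against 70.7% in the wild type, and the squared coefficient of variation was 10.4 and 6.17. Lefty1 was thus held by a minority of cells in both libraries, a smaller one in the knockout.

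Lefty2 was held by more cells, and its shares in the libraries had overlapping intervals. It was found in 39.2% (35.0 to 43.6) of the knockout and 40.3% (36.9 to 43.8) of the wild-type thinned cells, and unthinned in 56.4% and 57.2%. Among fibroblast-marker-high cells 2 of 19 and 0 of 7 held a UMI. The 10% of cells with most held 56.3% and 54.5% of its UMIs, with a squared coefficient of variation of 3.74 and 3.84. Smad2 was found in 13.9% and 12.3% of thinned cells, Smad3 in 2.67% and 3.41%.

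**Figure D2:**
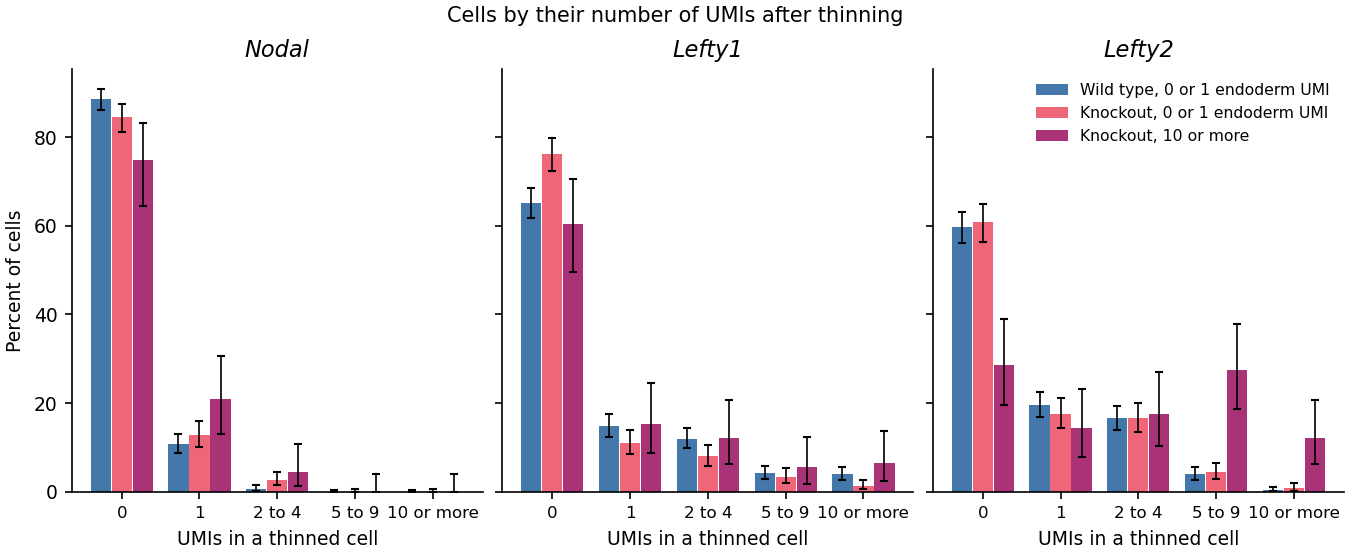
Percent of cells by the number of thinned UMIs (each cell thinned to 10413 UMIs) of Nodal, Lefty1 and Lefty2, in wild-type (791) and knockout (525) endoderm-low cells and knockout endoderm-high cells (91), with exact 95% binomial intervals. For Lefty1 the wild-type bars exceed the knockout endoderm-low bars at every count from 1 up, and for Lefty2 the endoderm-high cells reach 5 or more UMIs in 39.6% of cells.

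The Lefty genes marked the same cells more often than their shares alone give. In the knockout 73 of 525 endoderm-low cells held UMIs of both, where 49.0 would if the genes were independent, and in the wild type 158 of 791, where 111.3 would. Lefty2 was found in 58.4% of Lefty1 cells against 33.3% of the others in the knockout, and in 57.2% against 31.3% in the wild type. Pearson's r of log2(thinned UMIs + 1) was 0.32 in the knockout against 0.36 in the wild type, over cells of 1 library thinned to the same depth. Lefty1 and Lefty2 were each other's most alike gene among 6238 genes ranked by the mean r over both libraries.

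After Lefty1, the gene most like Lefty2 was Trh (mean r 0.29), the gene of thyrotropin-releasing hormone. Genes like Lefty1 included Tuba1a (0.18), Kcnk1 (0.17) and Ldhb (0.15), and further genes like Lefty2 were Tuba1a (0.13) and Hmgb2 (0.13).

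Tdgf1 had a different set of most alike genes. Its 5 most alike genes were Mkrn1 (mean r 0.41), Chchd10 (0.36), Dppa5a (0.28), Utf1 (0.28) and Igfbp2 (0.27), and its r with Lefty1 was -0.09 in the knockout against -0.07 in the wild type. Nodal was nearly unrelated to either inhibitor in endoderm-low cells, with r of -0.03 and 0.00 for Lefty1 and -0.05 and -0.03 for Lefty2 in the knockout and the wild type. Nodal and Lefty1 were together in 17 knockout cells (19.3 if independent) and 32 wild-type cells (31.4 if independent). Nodal had 98 and 95 thinned UMIs in all, so its r values are weak and no finding, and the highest mean r of Nodal with any gene was 0.12 (Aff4 and Spty2d1, then Xpo1 0.11, Rsf1 0.11 and B4galt6 0.10). Foxh1 had 2 and 1 thinned UMIs, and no most alike gene is given.

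**Figure D3:**
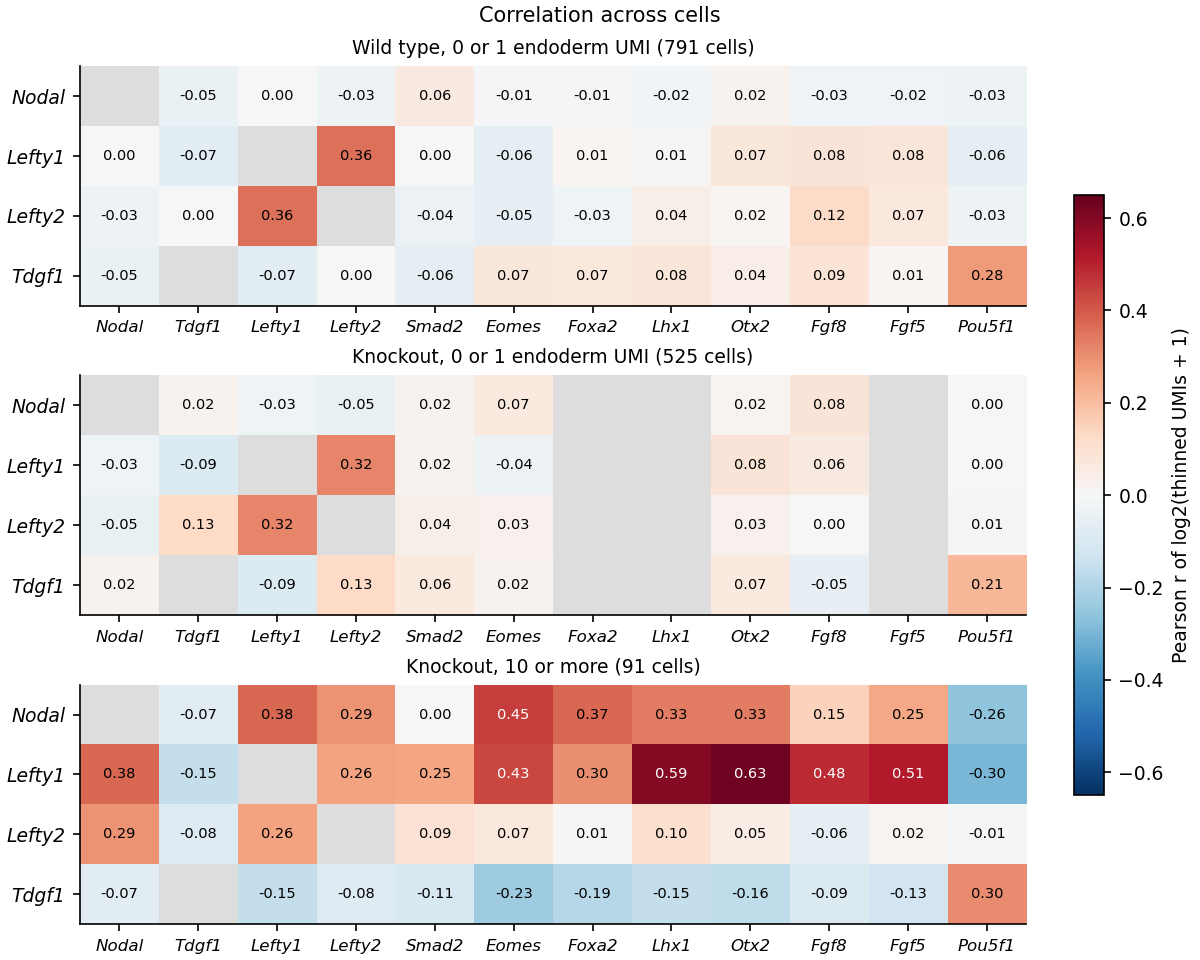
Pearson correlation across cells of log2(thinned UMIs + 1) for Nodal, Lefty1, Lefty2 and Tdgf1 (rows) with pathway members, target genes, Fgf5 and Pou5f1 (columns), in 3 classes of cells; grey marks a gene with itself or without a UMI in that class. The pair of Lefty genes stands at 0.36 and 0.32 in endoderm-low cells, and Lefty1 with Otx2 at 0.63 in knockout endoderm-high cells.

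Most other genes of the pathway were too low in endoderm-low cells to be called between the genotypes. Of 33 such genes (ligands, convertases, receptors, transducers, negative regulators and targets), 9 had a mean of at least 10 CPM, and 1 was at least 1.5-fold higher and 0 lower, where 4.72% and 2.48% of all genes were. With no library replicated these counts have no test. Their median log2 ratio was 0.09, beside 0.06 over all genes. The gene called was Acvr2b, a type II activin receptor, at 30.4 CPM in the knockout and 18.3 CPM in the wild type (log2 ratio 0.73, 0.54 to 0.93). No target reached 10 CPM. Of the targets, 2 that were singled out after their values were seen had lower counts in the knockout. Fgf8 gave 10 UMIs with the deletion and 134 without it, of which 41 came from a single wild-type cell. T (Brachyury) gave 9 and 31 UMIs. The target Otx2 lay the other way, with thinned UMIs in 44 of 525 knockout and 40 of 791 wild-type cells. The targets were thus mixed in direction.

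In the knockout library the endoderm-high cells had a different set of pathway transcripts from the endoderm-low cells. The inhibitor Lefty2 was 4.40-fold higher, Smad2 2.43-fold, Lefty1 2.21-fold and Nodal 1.54-fold higher, and the co-receptor Tdgf1 was 6-fold lower. Of the 5 members measured, 4 were at least 1.5-fold higher, where 26.6% of 6997 genes were, and 1 was lower, where 11.2% were (37.9% in either direction). Their median log2 ratio was 1.14, against 0.12 over all genes (10th and 90th percentiles -0.64 and 1.30). Nodal lay close to the limit: over the settings tried its log2 ratio ran from 0.30 to 1.05, so under some it was not called. With so many genes called, a call alone says little about a member.

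Nodal gave 64 UMIs in the 95 endoderm-high cells, 28.3 CPM (21.8 to 36.1), against 18.5 CPM in endoderm-low cells, a log2 ratio of 0.62 (0.20 to 1.01). Tdgf1 gave 306 UMIs, 135.2 CPM (120.5 to 151.3), against 812.6 CPM, a log2 ratio of -2.58 (-2.76 to -2.42). This was the 41st lowest ratio of the 6997 genes. Thinned Tdgf1 UMIs were left in 31.9% of 91 endoderm-high cells (22.5 to 42.5), against 97.0% of endoderm-low cells, and without thinning the shares were 47.4% and 95.8%. The 10 cells with most Tdgf1 held 75.2% of its thinned UMIs there, and the squared coefficient of variation was 9.25. Most endoderm-high cells thus had little or no Tdgf1 RNA detected, and a few held most of it.

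Lefty2 gave 948 UMIs, 418.9 CPM (392.7 to 446.5), against 95.3 CPM, a log2 ratio of 2.14 (2.02 to 2.26). It was found in 71.4% of thinned endoderm-high cells (61.0 to 80.4) against 39.2%, and its squared coefficient of variation was 1.22. Lefty2 was thus a common transcript of these cells. Lefty1 gave 368 UMIs, 162.6 CPM (146.4 to 180.1), against 73.8 CPM, a log2 ratio of 1.14 (0.97 to 1.31), and was found in 39.6% of thinned cells (29.5 to 50.4) against 23.8%. Its top 10 cells held 71.5% of its thinned UMIs. The Lefty1 share of all Lefty UMIs was 28.0% (25.6 to 30.5), against 43.6% in endoderm-low cells.

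The Lefty1 difference moved with the mitochondrial share and with chromosome 8, whose part in it was not tested. Among cells with 1 to 5% mitochondrial UMIs Lefty1 was 91.6 CPM in 66 endoderm-high and 78.0 CPM in 388 endoderm-low cells, a log2 ratio of 0.24 (-0.03 to 0.48). Among cells above 5% it was 372.6 CPM in 29 and 64.1 CPM in 204 cells, a log2 ratio of 2.54 (2.28 to 2.80). By chromosome 8 the ratio was 2.31 with the usual share and 0.26 with a raised share. Lefty2 was higher in all 4 of these subsets, by 1.75 to 2.66 on the log2 scale. For Nodal the ratio was 0.30 (-0.33 to 0.84) at 1 to 5% and 1.15 (0.53 to 1.70) above 5%. Smad2 gave 92 UMIs, 40.7 CPM (32.8 to 49.9), against 16.8 CPM, a log2 ratio of 1.28 (0.91 to 1.63). Smad3 gave 5 UMIs and Foxh1 3 UMIs in these cells. Without the macrophage-marker cells the ratio over all cells was 2.16 for Lefty2, 1.17 for Lefty1 and -2.57 for Tdgf1, as large as with them.

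**Figure D4:**
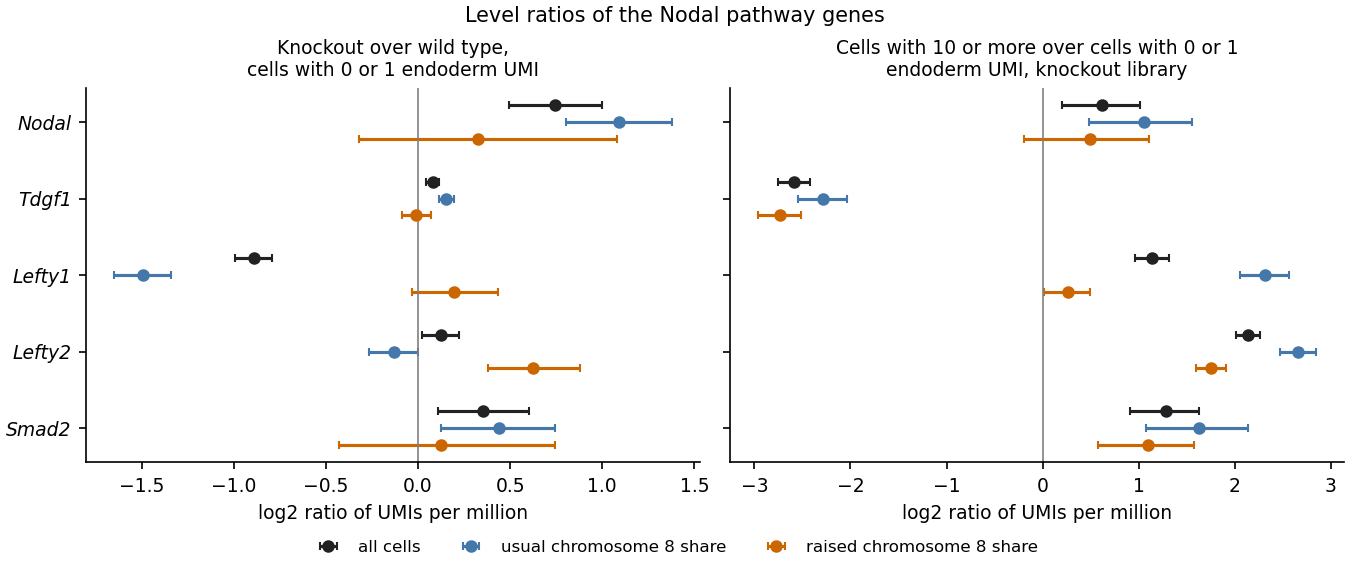
Log2 ratio of levels (CPM) with exact 95% intervals for counting error, for the 5 members above 10 CPM. Left, knockout over wild type in endoderm-low cells; right, endoderm-high over endoderm-low cells of the knockout; black is all cells, blue the usual and orange a raised share of chromosome 8, and Lefty1 lies at -1.49 in blue and 0.20 in orange on the left.

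Over finer steps of endoderm UMIs in the knockout library, Tdgf1 and Lefty2 crossed. Lefty2 was 98.8, 86.2, 110.5, 323.9, 401.7 and 562.3 CPM in cells with 0, 1, 2 to 9, 10 to 29, 30 to 99 and at least 100 endoderm UMIs (446, 146, 66, 32, 41 and 22 cells). Tdgf1 was 810.9, 817.0, 590.2, 340.4, 26.6 and 55.4 CPM in the same steps. Lefty2 was thus above its endoderm-low level from 10 endoderm UMIs on, in a step where Tdgf1 lay between its extremes. Lefty1 was lowest in the middle step, at 82.1, 52.3, 34.4, 83.7, 209.9 and 184.6 CPM. Nodal stayed between 12.8 and 19.1 CPM up to 29 endoderm UMIs and was 29.8 and 42.0 CPM in the highest steps. The middle step held 10 fibroblast-marker-high cells and 3 cells with many macrophage UMIs among its 66.

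**Figure D5:**
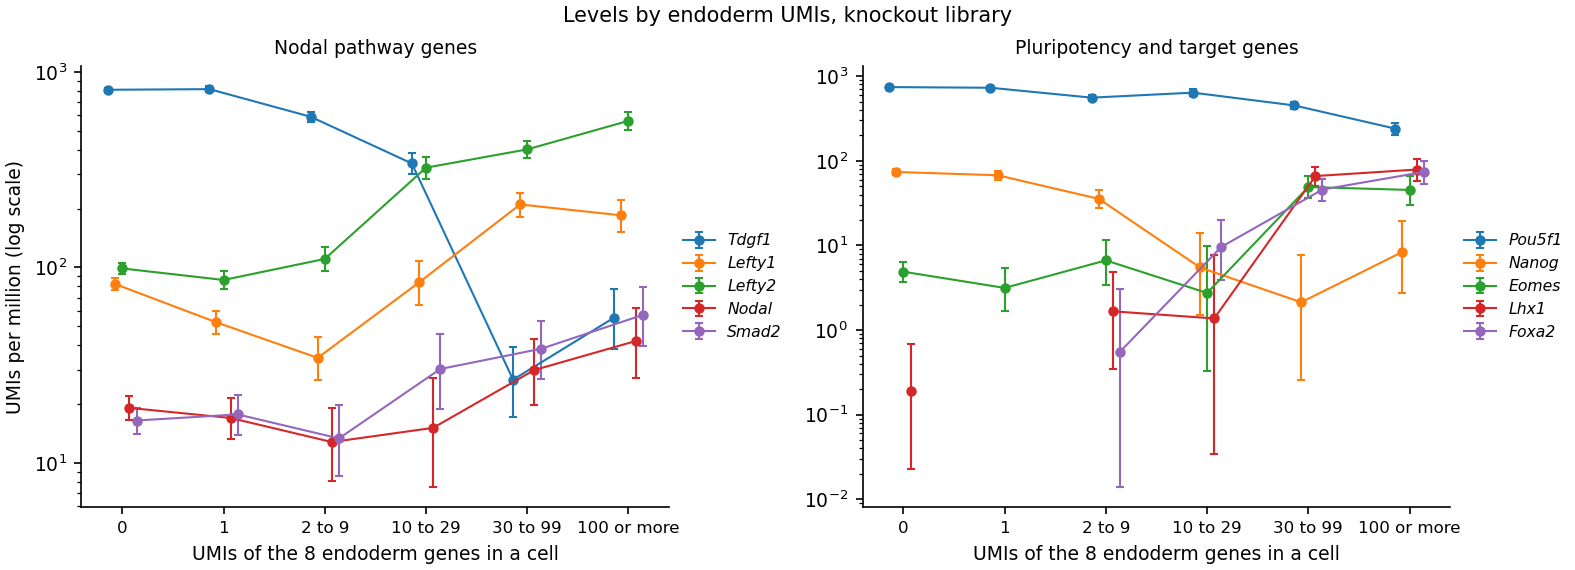
Levels (CPM, log scale) in the knockout library over 6 steps of UMIs of the 8 endoderm genes, with exact 95% Poisson intervals and gaps where no UMI was found. Left, the pathway genes, with Tdgf1 at 26.6 and Lefty2 at 401.7 in the step of 30 to 99; right, Pou5f1, Nanog and 3 target genes.

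Of the 33 other pathway genes, 19 reached a mean of 10 CPM in this comparison, and 10 were at least 1.5-fold higher and 4 lower, where 26.6% and 11.2% of all 6997 genes were, with a median log2 ratio of 0.74. Known Nodal targets led them, and all 5 targets that reached 10 CPM were higher, although the same transcription factors also act in endoderm. Lhx1, a homeobox factor of the visceral endoderm and head organiser, gave 110 UMIs in endoderm-high cells and 2 in endoderm-low cells, a log2 ratio of 8.17 (6.60 to 11.55). Foxa2, an endoderm transcription factor, gave 94 UMIs (41.5 CPM) and 0 UMIs, at least 204-fold higher when 3 UMIs over the endoderm-low class are taken as the floor. Eomes, a T-box factor of mesendoderm, was 33.1 CPM against 4.40 CPM (log2 ratio 2.91), and Otx2, a head homeobox factor, 28.7 against 9.55 CPM (1.59). Not all of these differences ran through the class. After thinning, 11 Lefty1-rich cells described below held 27 of 32 Otx2 UMIs and 42 of 58 Lhx1 UMIs. Outside them Otx2 was found in 2 of 55 and 1 of 25 cells, against 44 of 525 endoderm-low cells.

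The genes upstream of the receptors split. Furin, a convertase that cleaves the Nodal precursor, was 48.2 CPM in endoderm-high and 6.44 CPM in endoderm-low cells (log2 ratio 2.90). Gdf3, a ligand of the same family that also uses Cripto, was 10.2 against 61.3 CPM (-2.56). Tgif1, a repressor that binds SMAD2, was 49.9 against 128.2 CPM (-1.35). A further 4 genes called higher lay between 0.74 and 1.21, and a further 2 called lower at -1.04 and -0.87.

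Within the 91 thinned endoderm-high cells, high Lefty1 went with a set of target genes. The 11 cells with at least 5 thinned Lefty1 UMIs held 42 Lhx1 UMIs, a mean of 3.82 per cell, against 0.20 in the 25 cells with 1 to 4 Lefty1 UMIs and 0.20 in the 55 cells with none. Their mean Otx2 was 2.45 against 0.040 and 0.073. Gsc (goosecoid), a target known from the organiser, gave 13 UMIs in the 11 cells and 0 in the others. The targets T and Mixl1 were not part of this set, with 0 and 1 UMI in the 11 cells. Nodal itself averaged 1.18 UMIs (0.63 to 2.02) in the 11 cells against 0.24 and 0.18.

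The same 11 cells held no Tdgf1 UMI, and their mean Pou5f1 was 1.55 against 5.64 and 4.45. Their median mitochondrial share was 6.27%, against 4.37% and 4.24%, and its part was not tested. They also differed in genes used by the split. Mean Lrp2 was 11.3 against 4.52 and 3.27, and mean Dab2 14.5 against 7.04 and 7.25. Gata6 was 3.27 against 2.92 and 3.04, and Sox17 0.45 against 0.56 and 1.04. Over all 91 cells r with Lefty1 was 0.63 for Otx2, 0.59 for Lhx1, 0.51 for Fgf5, 0.48 for Fgf8, 0.43 for Eomes and -0.30 for Pou5f1, values that a few cells can set. Nodal and Lefty1 were found together in 14 cells, where 9.10 would be if independent (r 0.38). Lefty2 showed no such set: its r was 0.05 with Otx2 and 0.10 with Lhx1.

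Between the genotypes the endoderm-high class cannot be compared, because the wild type had 3 such cells, of which 2 were the macrophage-marker cells named above. Those 3 wild-type cells held 2 UMIs of Nodal, 7 of Tdgf1, 11 of Lefty1, 3 of Lefty2, 1 of Smad2 and 0 of Smad3 and Foxh1. For the members above 3 wild-type UMIs the log2 ratio was 0.62 (-0.34 to 2.04) for Tdgf1 and 0.27 (-0.52 to 1.35) for Lefty1, which became -0.44 without the macrophage-marker cells.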

How the data were processed

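The authors deposited raw counts: whole-number UMI counts per gene and cell in integer matrices, per the file headers. Cell Ranger 2.0.0, Seurat 3.1.1 and mm10 are named in the submitters' processing notes, and how cells were told from empty droplets is not given in the sources used here. Cells were kept and split as described above, counts were summed per library and class, and ratios were taken of CPM after adding 0.5 counts to both sums. A gene entered the counts of genes if the groups compared averaged 10 CPM or more, and called means at least 1.5-fold. Shares, variation and correlations used cells thinned once to 10413 UMIs, which left out 75 knockout and 91 wild-type cells as too shallow. Cells that Scrublet called doublets (scanpy 1.11.5, 10 knockout and 7 wild-type cells) were kept and left out as an alternative. TMM factors came from edgeR 4.0.16. Intervals are exact Poisson, Clopper-Pearson or conditional ones at 95%. The ratio and interval code was tested on simulated data.

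All 7 members are named, with up to 8 other pathway genes per comparison at or past 1.5-fold, by size, and the 5 genes most alike each member with enough UMIs. The members and lists were chosen with earlier results of these data known. The alternatives without macrophage-marker cells and with at least 3 of the 8 endoderm genes detected were chosen after seeing the data. Some items under these rules are not reported here.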

Additional observations from a re-analysis of the deposited data

Results flagged for a closer look

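Cells left out for their mitochondrial share also held Lefty UMIs. In the 244 knockout cells under 1% mitochondrial UMIs (median depth 8632 UMIs), Lefty1 was 63.3 CPM (54.4 to 73.2), above the 27.2 CPM (11.7 to 53.6) of the 17 wild-type cells under 1%. In the 71 knockout cells over 10% (median depth 7668 UMIs), Lefty2 was 299 CPM (255.9 to 346.4), above the 122.2 CPM (83.6 to 172.5) of the 33 wild-type cells over 10%. These cells were not split by endoderm UMIs, and 6 knockout cells under 1% and 3 over 10% had at least 10, against 0 in the wild type. Over 10%, Lefty1 was 193.9 CPM (159.8 to 233.1) in the knockout and 217.6 CPM (164.8 to 281.9) in the wild type.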

How the results depend on the processing

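No paired analysis was possible because there is a single library for each genotype, and for the same reason no replicate could be left out. For knockout over wild type in endoderm-low cells, the log2 ratio of Tdgf1 (0.08) was 0.0011 with TMM scaling, -0.0011 with the median of ratios, -0.016 with cells of 0 to 10% mitochondrial UMIs and 0.0093 with 1 to 5%. With the usual chromosome 8 share the ratios were 0.15 for Tdgf1, 1.09 for Nodal, -1.49 for Lefty1 and -0.13 for Lefty2. Lefty1 (-0.89) was -0.57 with 0 endoderm UMIs in the endoderm-low class and -0.99 without the cell richest in it in each group. For endoderm-high over endoderm-low, Tdgf1 (-2.58) was -2.86 with cells weighted alike, -3.67 with at least 20 endoderm UMIs, -2.38 at 1 to 5% mitochondrial UMIs, -2.28 with the usual chromosome 8 share, -3.31 with 3 of the 8 genes required and -3.01 without the richest cells. Lefty1 (1.14) was 1.43 weighted alike, 1.35 with at least 20 endoderm UMIs, 0.24 at 1 to 5% mitochondrial UMIs and 2.31 with the usual chromosome 8 share, which gave 1.05 for Nodal and 2.66 for Lefty2. Lefty2 (2.14) was 1.98 with TMM and 2.0 with the median of ratios. The endoderm-high ratio between genotypes for Lefty1 was -1.29 at 1 to 5% mitochondrial UMIs.

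Share differences in percentage points were 5.72 for Smad2 between genotypes without thinning (1.64 with it). Between classes they were 26.9 for Smad2 without thinning (14.7 with it), and for Tdgf1 (-65.1) -54.9 at 15000 UMIs, -48.4 without thinning and -79.7 for at least 2 UMIs. In endoderm-high cells at 15000 UMIs r was 0.15 for the Lefty genes and 0.17 for Nodal with Lefty2. At a mean of 1 CPM the genotypes differed in 1062 higher and 611 lower genes, and at 2-fold in 63 and 41 (305 and 160 as reported). The classes differed in 3691 and 2141 genes at 1 CPM, and in 1042 and 356 at 2-fold (1862 and 787 as reported). Of the other pathway genes 3 were higher and 2 lower between genotypes at 1 CPM, 0 were higher at 2-fold, and 16 were higher between classes at 1 CPM. The causes were not tested. The other 229 alternative values of these results stayed within the limits set (0.5 of the interval's width for ratios). Among them, ratios between genotypes in endoderm-high cells, share differences between genotypes of Tdgf1, Lefty2 and Smad2, and r of Nodal with Lefty1 in endoderm-low cells, all near 0 or on few counts, changed sign under some settings. Foxh1 and Smad3 were limited by depth.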
